A study of Mus musculus with 12 samples.

Results

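Ribosome biogenesis factors are the proteins that build the ribosome without remaining in it. The members were the probe sets of the array whose only gene symbol was 1 of 39 genes on a fixed list of such factors. Membership went by gene symbol and not by measured values, although the list was chosen with earlier results of these data known. Of the 39 genes, 38 had a probe set of their own (Dkc1, the pseudouridine synthase of the box H/ACA particle, had none), out of 12394 genes on the array, and these 38 genes had 69 probe sets. The arrays, mouse expression arrays of the type MOE430A, had been hybridised with total RNA of the complete small intestine of male mice of 14 weeks. Wild-type and PPARα-null mice were studied both in the fed state and after a fast of 24 h, which makes 4 groups, and every group had 3 biological replicates on 3 arrays. PPARα-null mice carry the deletion of the fatty acid receptor PPARα in every cell from conception, so that effects arising outside the intestine or during development are included in each difference between genotypes. The labels give 129S1/SvImJ for wild-type and 129S4/SvJae for PPARα-null fasted mice and 129Sv for the fed mice of both genotypes. The study's methods give 129S1/SvImJ for wild-type and 129S4/SvJae for PPARα-null mice, so that genotype and substrain cannot be told apart. By the labels alone, fed and fasted mice of a genotype also differ in strain name, a difference that each fasting contrast includes. The fed groups had free access to feed, given as AIN93M diet in the study's design notes and as chow in its methods. It is not stated whether 1 replicate was 1 mouse or a pool.

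Ribosomes are assembled mainly in the nucleolus. RNA polymerase I transcribes a long precursor of the ribosomal RNAs, guide RNA particles of the box C/D and box H/ACA type direct its methylation and pseudouridylation, and the small subunit processome, built around the U3 particle, and the large subunit assembly factors cut, fold and export the subunits. Dividing cells make many ribosomes, and in the small intestine epithelial cells divide in the crypts. Transcription of many of the factors is known to respond to Myc, a transcription factor that binds the sequence CACGTG, and to the nutrient-sensing kinase mTOR.

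The values were the intensities deposited by the authors, on the linear scale, taken to log2 for every test. Over the probe sets with a mean intensity over 20 in wild-type fed mice, 9370 in all, fasted arrays read lower than fed arrays by a median of −0.32 on the log2 scale, −0.28 in wild-type and −0.33 in PPARα-null mice. Fed and fasted arrays had nearly identical distributions within each set and different ones between the sets, so a true change common to most transcripts and a different treatment of the sets of arrays cannot be told apart. Each log2 change upon fasting below is therefore relative to that single constant, whereas printed intensities include it. Differences between genotypes and the interaction, that is, the wild-type change minus the PPARα-null change, do not contain it. A probe set was called, and is said to have risen or fallen, when its limma p, before adjustment, was below 0.01 and its change exceeded 1.3-fold. The limma fit is a linear model that borrows the variance across probe sets, and adjustment was by Benjamini-Hochberg across those 9370 probe sets. These p-values set a difference between groups against the spread of samples within groups, pooled over the 4 groups. They take no account of a different treatment of the fed and fasted sets of arrays. Because whole intestine was measured, fewer cells of a type and less RNA per cell cannot be told apart.

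Ppara itself, the deleted gene, read 19.9, 34.0 and 35.9 in the wild-type fed arrays, 58.7, 48.1 and 30.8 in wild-type fasted, 6.84, 7.50 and 7.35 in PPARα-null fed and 13.2, 11.7 and 11.0 in PPARα-null fasted arrays. All wild-type arrays lay above all PPARα-null arrays, including those labelled wild-type fasted, whose free-text description names the knockout while title and strain name the wild-type. The tissue label was borne out by 6 enterocyte markers, whose summed intensity was 46440 to 48220 in wild-type fed and 39070 to 40780 in PPARα-null fasted arrays. Some arrays also held signal of the exocrine pancreas, with a summed intensity of 8 marker genes of 77.2 to 1133 in the fed arrays and 7808 to 16900 in wild-type fasted arrays, against 18840, 134.7 and 19610 in PPARα-null fasted replicates 1, 2 and 3. PPARα-null fasted replicate 2 therefore carried little of it, and its values are pointed out beside the results it touches.

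Of the 69 probe sets of ribosome biogenesis factors, 44 of 29 genes exceeded a mean of 20 in wild-type fed mice and were tested, with means from 20.2 to 1610. The 25 others, with means from 3.57 to 19.1, were not tested. They included every probe set of 9 genes, namely Polr1a and Polr1b, the large subunits of RNA polymerase I, Nop58 and Rrp9 of the box C/D and U3 particles, Pes1, Wdr12 and Rrp1b of the large subunit, and Bysl and Tsr1 of the small subunit. Taking the brightest probe set of each gene, the 5 genes with the highest mean over the 12 arrays were Npm1 (nucleophosmin), Ncl (nucleolin), the methyltransferase Emg1, the H/ACA core protein Nop10 and the polymerase subunit Polr1d. The intensity of the leading probe set, Npm1 1415839_a_at, was 1727, 1495 and 1608 in wild-type fed, 1435, 1309.7 and 1465 in wild-type fasted, 1672, 1656 and 1577 in PPARα-null fed and 1273, 1318 and 1446 in PPARα-null fasted arrays. All fasted arrays of each genotype lay below its fed arrays, by about as much as the common shift, and relative to that shift the log2 change was 0.12 (SE 0.09) in wild-type and 0.03 (SE 0.09) in PPARα-null mice. Ncl 1415771_at, the next brightest, read 1654, 1446 and 1412 in wild-type fed, 1267, 1285 and 1433 in wild-type fasted, 1485, 1566 and 1434 in PPARα-null fed and 1506, 1571 and 1501 in PPARα-null fasted arrays, which overlapped between fed and fasted mice of both genotypes. Emg1 1416393_at read 613, 648 and 595 in wild-type fed, 443, 469 and 466 in wild-type fasted, 659, 670.2 and 649 in PPARα-null fed and 427, 413 and 407 in PPARα-null fasted arrays. Its change in PPARα-null mice, −0.35 (SE 0.07, adjusted p = 0.00123 in limma), stayed under the fold threshold.

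Fasting moved few of the factors in wild-type mice. Imp3, a protein of the U3 particle, rose, and Nolc1, a nucleolar chaperone of the guide RNA particles, and Nop2, a methyltransferase of the large subunit RNA, fell. That was 3 of 44 probe sets called (6.82%), against 17.5% of all 9370 probe sets (10% risen and 7.43% fallen). The median log2 change of the 44 probe sets was 0.02, that of all tested probe sets 0.03, and the values ranged from −0.52 to 0.51. As deposited, without the common shift removed, 39 of the 44 were lower in the fasted mice.

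Imp3 1416210_at had intensities of 74.0, 80.5 and 92.1 in wild-type fed and of 88.1, 87.7 and 107 in wild-type fasted mice. The arrays of both groups overlapped as deposited, and relative to the common shift the log2 change was 0.51 (SE 0.12, adjusted p = 0.00871 in limma). For Nolc1, probe set 1428870_at read 29.2, 23.5 and 28.1 in the fed and 14.7, 13.4 and 17.0 in the fasted mice, with no overlap and a change of −0.52 (SE 0.14, adjusted p = 0.0161 in limma). Nop2 1424019_at read 51.3, 49.9 and 53.3 in the fed and 31.0, 28.1 and 35.5 in the fasted mice, again without overlap, and fell by 0.40 (SE 0.12, adjusted p = 0.0264 in limma). Imp3 stayed called when any single array was left out (0.41 to 0.59). Nop2 lost the call without wild-type fed replicate 1 or 3 or wild-type fasted replicate 1 or 2 (−0.49 to −0.31), and for Nolc1 the same held for the first fed and the second fasted wild-type array (−0.62 to −0.44). With the pancreas signal as a covariate Imp3 kept its call, whereas Nop2 had a change of −0.16 and Nolc1 one of −0.51 and neither was called. That signal was 80.6 to 1133 in all wild-type fed and 7808 to 16900 in all wild-type fasted arrays. The fit can therefore hardly separate it from fasting in this genotype.

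**Figure D1:**
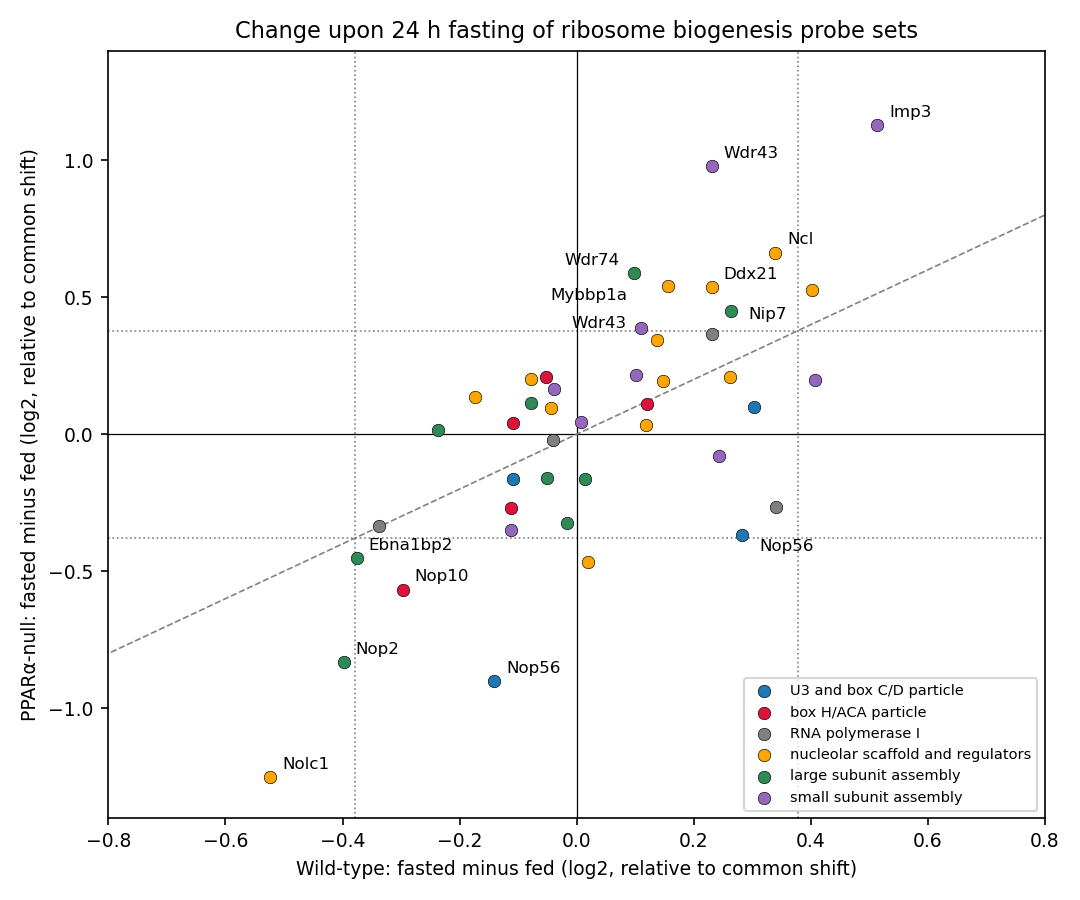
Change upon 24 h fasting of the 44 tested probe sets, wild-type on the horizontal and PPARα-null on the vertical axis (log2, relative to the common shift; the scales of the axes differ), coloured by role. Dotted lines mark a 1.3-fold change, the dashed line equal change, and names mark the called probe sets, with Nolc1 lowest (−1.25) and Imp3 highest (1.13) on the vertical axis.

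In PPARα-null mice, fasting moved 13 of the 44 probe sets, and it moved them in both directions. Nolc1, Nop56, Nop2, Nop10 and Ebna1bp2 fell, by 1.37-fold to 2.38-fold, whereas Imp3, Wdr43, Ncl, Wdr74, Mybbp1a, Ddx21 and Nip7 rose, by 1.31-fold to 2.19-fold. The 13 were 29.5% of the probe sets tested, against 42.2% of all probe sets. The 8 probe sets that rose, of 7 genes, stood against a background of 18.6%, and the 5 that fell against one of 23.6%. Over all 44 tested probe sets, called or not, the median log2 change was 0.10 against −0.02 for the 9370 probe sets, and the median size of change, regardless of sign, was 0.27 against 0.36. As deposited, 33 of the 44 were lower in fasted than in fed PPARα-null mice, and the split of the calls then turned from 8 risen and 5 fallen to 2 risen and 15 fallen, Imp3 and Wdr43 being those that still rose. Every probe set called risen had, as deposited, a higher mean in the fasted PPARα-null mice, by 0.07 (Wdr43 1428389_s_at) to 0.81 (Imp3) on the log2 scale.

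Among the proteins of the box C/D particle, which carries out methylation of ribosomal RNA, 1 of 4 tested probe sets was called. Nop56 encodes a core protein of that particle. Probe set 1426533_at read 55.2, 44.9 and 39.9 in PPARα-null fed and 22.6, 18.1 and 19.3 in PPARα-null fasted mice. The groups did not overlap, and replicate 2 of the fasted mice, low in pancreas signal, was the lowest. Nop56 fell by 0.90 (SE 0.12, adjusted p = 6e-05 in limma). A second probe set, 1455035_s_at, read 70.7, 75.9 and 71.2 in the fed and 45.9, 49.1 and 41.0 in the fasted mice, and its change of −0.37 (adjusted p = 0.029 in limma) stayed short of the fold threshold. Fibrillarin (Fbl), the methyltransferase of the particle, had changes of 0.10 and −0.17 on its probe sets and was not called.

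The box H/ACA particle, which makes pseudouridine, was represented by 5 probe sets of Nhp2, Gar1 and Nop10, of which 1 was called. Nop10 1423211_at read 337, 313 and 303 in PPARα-null fed and 166, 176 and 174 in PPARα-null fasted mice. These groups stood well apart, with a change of −0.57 (SE 0.09, adjusted p = 0.000165 in limma). The other probe set of Nop10, 1423210_a_at, had a change of −0.27 (adjusted p = 0.0723 in limma) and was not called. Nhp2 and Gar1 lay between 0.04 and 0.21. No probe set of RNA polymerase I passed in any comparison as fitted here. The probe sets of Polr1d, a subunit shared with RNA polymerase III, pointed in opposite directions in PPARα-null mice, at −0.33 for 1448287_at and 0.37 for 1451120_at. The latter lay just under the fold threshold and was called with a shift that depends on level (0.40), with quantile normalization (0.38), with centred arrays (0.43), with the pancreas covariate (0.39) and without PPARα-null fasted replicate 1 (0.40) or 2 (0.39). A probe set of Polr1d was also called lower upon fasting in both genotypes as deposited, lower in wild-type mice without the first fed or the first fasted array of that genotype, and higher between the fasted genotypes with centred arrays or without the first array of either fasted group. A probe set of Polr1c, another shared subunit, was called in PPARα-null fasting, between the fasted genotypes and in the interaction when PPARα-null fasted replicate 3 was left out.

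Nucleolar scaffold proteins and regulators held 13 tested probe sets of 6 genes, of which 3 rose and 1 fell. Nolc1 1428870_at had the largest fall of all members, from 31.0, 38.4 and 26.8 in the fed to 9.97, 10.7 and 11.5 in the fasted PPARα-null mice. No array overlapped, and the change was −1.25 (SE 0.14, adjusted p = 9.46e-06 in limma). On this probe set all fasted arrays of both genotypes lay under the level cut of 20. A filter on the geometric mean over all arrays left the probe set out. The probe sets of this gene disagreed, since 1428869_at read 20.2, 35.6 and 30.9 in the fed and 28.3, 26.7 and 18.6 in the fasted mice, with a change of 0.09 (SE 0.21), and 1450087_a_at was too low to be tested.

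Ncl encodes nucleolin, an abundant RNA-binding protein of the nucleolus. Its probe set 1415773_at rose from 356, 370.5 and 345 to 496, 464 and 409 in PPARα-null mice, so that every fasted array lay above every fed array, and the change was 0.66 (SE 0.12, adjusted p = 0.000449 in limma). The 3 other probe sets of Ncl had changes of 0.35, 0.20 and −0.47, none of them called, the last from a probe set of low intensity with a mean of 20.2 in wild-type fed mice. Mybbp1a encodes a nucleolar protein that binds the Myb oncoprotein and takes part in ribosomal RNA processing. It read 168, 169 and 173 in the fed and 208, 198 and 192 in the fasted mice on probe set 1423431_a_at, without overlap, and rose by 0.54 (SE 0.10, adjusted p = 0.000397 in limma). Its other probe set, 1423430_at, had nearly the same change, 0.53, with a larger SE of 0.17 and was not called. Ddx21, an RNA helicase, read 29.5, 25.6 and 24.4 in the fed and 30.9, 37.5 and 25.2 in the fasted mice on probe set 1448271_a_at, with overlap, and rose by 0.54 (SE 0.16, adjusted p = 0.0118 in limma). The call of Ddx21 was lost in 4 of 12 fits without a single array, those without PPARα-null fed replicate 2 or 3 or PPARα-null fasted replicate 1 or 2 (0.40 to 0.68), and its other probe set had a change of 0.14. Npm1 and Gnl3 (nucleostemin) had no call.

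Of 9 tested large subunit assembly factors, each with 1 tested probe set, 2 fell and 2 rose. Nop2 1424019_at read 46.3, 50.1 and 46.3 in PPARα-null fed and 18.8, 25.5 and 20.6 in PPARα-null fasted mice, so that the fasted arrays lay at around the level cut, and fell by 0.83 (SE 0.12, adjusted p = 6.46e-05 in limma). Ebna1bp2, a factor of early 60S precursors, read 71.3, 79.6 and 79.4 in the fed and 36.7, 52.4 and 47.5 in the fasted mice and fell by 0.45 (SE 0.13, adjusted p = 0.0123 in limma). In wild-type mice it had a similar change of −0.38 (adjusted p = 0.0609 in limma). Wdr74, which takes part in the release of assembly factors, rose by 0.59 (SE 0.13, adjusted p = 0.00227 in limma), with 21.7, 21.6 and 24.6 in the fed and 27.0, 22.7 and 33.1 in the fasted mice, and the lowest fasted value, that of replicate 2, lay inside the fed range. Nip7, which binds the large subunit precursor, read 52.5, 52.1 and 45.0 in the fed and 50.3, 53.4 and 60.7 in the fasted mice, with overlap, and rose by 0.45 (SE 0.11, adjusted p = 0.00309 in limma). Single arrays decided the calls of Ebna1bp2 (lost without PPARα-null fed replicate 2 or 3 or PPARα-null fasted replicate 1, −0.56 to −0.31) and of Nip7 (lost without PPARα-null fed replicate 3 or fasted replicate 3, 0.37 to 0.51). Wdr74 read 17.9, 23.1 and 20.1 in wild-type fed mice, with a mean of 20.4. Without the second of these arrays it was under the level cut and no longer called. Without PPARα-null fasted replicates 1 and 3 together, the changes of Wdr74 (0.31), Ebna1bp2 (−0.25) and Nip7 (0.40) were not called, and with the pancreas signal as a covariate those of Wdr74 (0.45) and Ebna1bp2 (−0.32) were not. Bop1, Rrs1, Nop16, Ppan and Ddx18 had no call, with changes from −0.33 (Rrs1) to 0.12 (Bop1).

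Small subunit assembly factors gave the largest rises and, among 9 tested probe sets, no fall. Imp3 1416210_at read 89.3, 85.7 and 69.3 in PPARα-null fed and 145, 138 and 143 in PPARα-null fasted mice. All fasted arrays lay above all fed arrays, replicate 2 included, and the change was 1.13 (SE 0.12, adjusted p = 7.02e-06 in limma). Wdr43, a protein of the early small subunit processome, read 28.0, 29.1 and 32.6 in the fed and 46.7, 45.8 and 49.2 in the fasted mice on probe set 1428390_at, again without overlap, and rose by 0.98 (SE 0.09, adjusted p = 2.42e-06 in limma). Its second probe set, 1428389_s_at, read 25.1, 28.2 and 35.4 in the fed and 30.0, 30.4 and 32.0 in the fasted mice. The change there, 0.39 (SE 0.12, adjusted p = 0.0183 in limma), lost its call in 8 of 12 fits without a single array (0.28 to 0.53), of arrays from all 4 groups, and also with the pancreas signal as a covariate (0.25). Heatr1, Imp4, Emg1, Rcl1 and Noc4l were not called, with changes from −0.35 (Emg1) to 0.22 (Imp4).

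**Figure D2:**
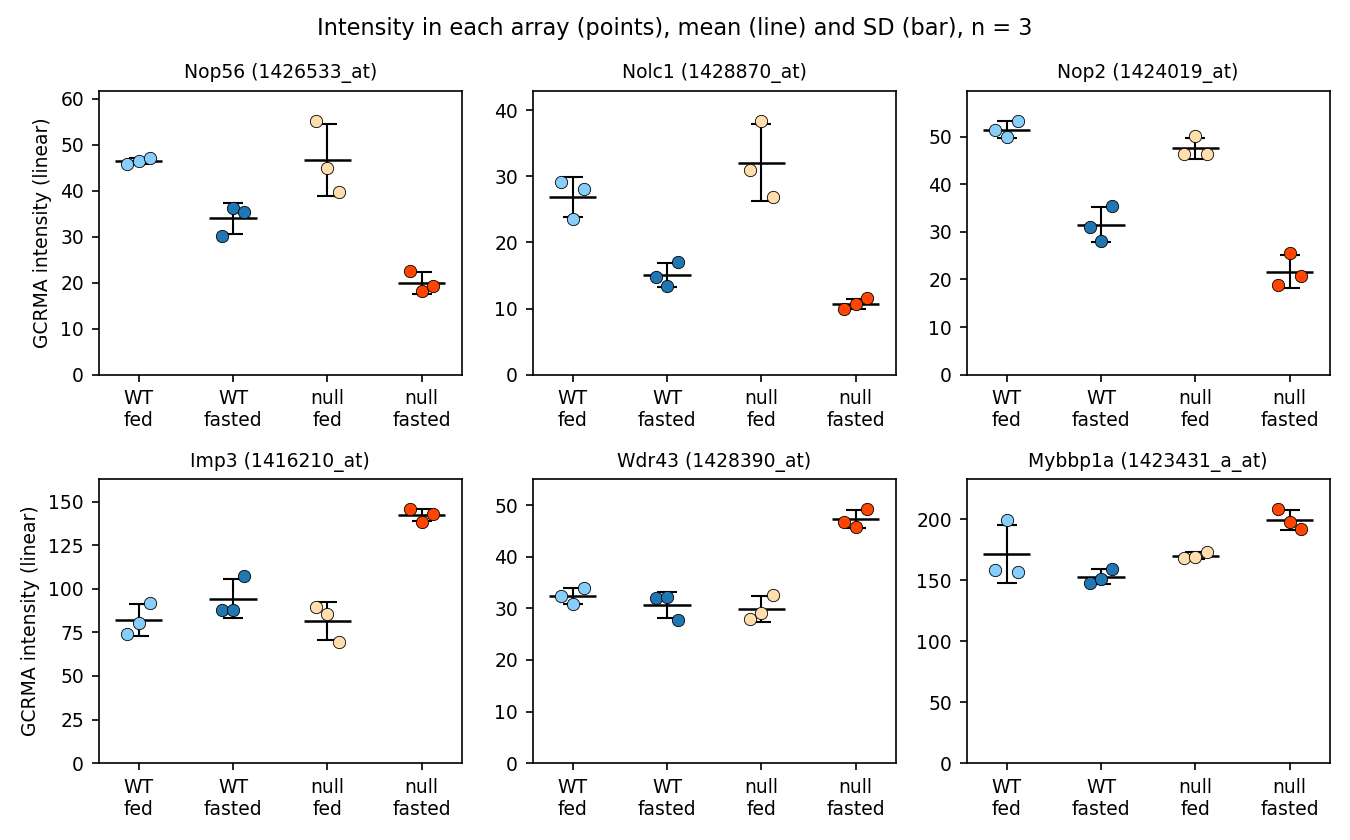
Intensity (GCRMA, linear scale, common shift included) of 6 called probe sets in each of the 12 arrays, with the mean and SD of the 3 arrays per group; WT is wild-type and null is PPARα-null. Nop56, Nolc1 and Nop2 lie lowest in the PPARα-null fasted arrays, where Imp3, Wdr43 and Mybbp1a are highest by their group means.

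The stretches just upstream of the annotated start of 3 of these genes are shown because the Nop2 and Nop56 probe sets fell in fasted PPARα-null mice and Imp3 rose, and because Nop2 alone of the 3 holds the Myc-binding letters. They are RefSeq sequences of build GRCm38.p6, all on the plus strand, read 5′ to 3′, and end at the base before the gene's first annotated base. Nop2 is at chr6:125131633-125131882 (gene at 125131883 to 125144753), Nop56 at chr2:130274162-130274366 (gene at 130274367 to 130279313) and Imp3 at chr9:56937250-56937499 (gene at 56937500 to 56938398). Capitals mark CACGTG, a palindrome that reads alike on both strands.
Nop2: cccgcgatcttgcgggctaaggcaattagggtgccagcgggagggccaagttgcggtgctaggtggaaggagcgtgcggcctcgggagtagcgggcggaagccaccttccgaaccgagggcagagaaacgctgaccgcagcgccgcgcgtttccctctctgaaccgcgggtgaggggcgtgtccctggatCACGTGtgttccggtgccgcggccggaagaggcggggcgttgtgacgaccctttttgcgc
Nop56: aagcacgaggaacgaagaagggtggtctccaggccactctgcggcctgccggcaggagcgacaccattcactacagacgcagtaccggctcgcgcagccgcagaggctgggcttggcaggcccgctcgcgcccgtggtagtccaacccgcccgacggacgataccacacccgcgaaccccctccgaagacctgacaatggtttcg
Imp3: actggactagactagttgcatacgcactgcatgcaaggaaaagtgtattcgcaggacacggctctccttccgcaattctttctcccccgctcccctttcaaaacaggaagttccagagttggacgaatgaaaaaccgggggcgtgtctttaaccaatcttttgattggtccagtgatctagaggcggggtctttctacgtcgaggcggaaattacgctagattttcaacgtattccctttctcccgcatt

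In Nop2 the letters CACGTG begin 60 bases before the gene's start. Promoters were taken from 250 bases before to 50 bases after each annotated start, and some genes had more than 1. Of 38 promoters of 35 ribosome biogenesis factors, 6 (15.8%) held these letters, those of Imp4, Mybbp1a, Nop2, Pes1, Tsr1 and Wdr43. Among all 32851 promoters the share was 7.15%, among those of protein-coding genes 7.84%, and among 128 promoters of other ribosome biogenesis genes 21.1%. Of the genes that moved in fasted PPARα-null mice, 1 of 5 that fell (Nop2) and 2 of 7 that rose (Mybbp1a and Wdr43) held the letters. Of 13 genes tested and not called there, 1 did (Imp4). A match describes the sequence alone.

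In the fed state no difference between the genotypes passed the test for a ribosome biogenesis factor. With limma, 0 of the 44 probe sets were called in PPARα-null minus wild-type fed mice, against 2.55% of all probe sets (0.864% higher and 1.69% lower), and at an unadjusted p under 0.05 alone, 2 were higher and 1 was lower. The log2 differences ranged from −0.26 (Ncl 1415773_at) to 0.47 (Noc4l 1438095_x_at), with a median of 0.07. Noc4l, a small subunit factor, came to be called when PPARα-null fed replicate 1 or PPARα-null fasted replicate 1 was left out.

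After fasting, 8 of the 44 probe sets differed between the genotypes, with 4 lower (Nop56 with both its probe sets, Nop2 and Nolc1) and 4 higher (Wdr74, Wdr43, Imp3 and Mybbp1a) in PPARα-null mice. This was 18.2% of the probe sets, against 29.2% of all probe sets, with backgrounds of 11.6% higher and 17.6% lower. These differences do not depend on the common shift between fed and fasted arrays. Over all 44 tested probe sets the median difference was 0.09 on the log2 scale.

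Among the lower ones, Nop56 1426533_at read 30.2, 36.3 and 35.4 in wild-type fasted mice and the 22.6, 18.1 and 19.3 given above in PPARα-null fasted mice, a difference of −0.77 (SE 0.12, adjusted p = 4e-04 in limma). Its second probe set, 1455035_s_at, read 51.6, 74.1 and 71.1 in wild-type fasted mice, all above the PPARα-null fasted arrays, with a difference of −0.52 (SE 0.13, adjusted p = 0.00711 in limma). Both probe sets of the gene thus pointed the same way. Nop2 was lower by a log2 difference of −0.55 (SE 0.12, adjusted p = 0.0025 in limma) and Nolc1 1428870_at by −0.49 (SE 0.14, adjusted p = 0.0135 in limma), in both cases with no overlap between the arrays of the fasted groups. Nolc1 lost this call without wild-type fasted replicate 3 or PPARα-null fasted replicate 1 or 2 (−0.56 to −0.40).

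Among the higher ones, Wdr74 read 17.7, 16.5 and 18.1 in wild-type fasted mice, below all 3 PPARα-null fasted arrays, a difference of 0.65 (SE 0.13, adjusted p = 0.00201 in limma). These wild-type fasted arrays lay under the level cut, and without wild-type fed replicate 2 the probe set was not tested. Wdr43 1428390_at read 32.1, 32.1 and 27.7 in wild-type fasted mice and differed by 0.63 (SE 0.09, adjusted p = 0.000171 in limma). For Imp3 the difference was 0.60 (SE 0.12, adjusted p = 0.00169 in limma), with the highest wild-type fasted array, at 107, well under the lowest PPARα-null fasted array, at 138. Mybbp1a 1423431_a_at read 148, 151 and 159.5 in wild-type fasted mice and differed by 0.38 (SE 0.10, adjusted p = 0.00692 in limma), a call that was lost without wild-type fasted replicate 1 or 2 or PPARα-null fasted replicate 1 (0.35 to 0.42). When PPARα-null fasted replicates 1 and 3, the arrays with high pancreas signal in that group, were left out together, 3 probe sets were called, namely Nop56 1426533_at (−0.90) and Wdr43 1428390_at (0.58) as before and a probe set of Ddx21 in addition. With the pancreas signal as a covariate the count was again 8, although Mybbp1a (0.37) was not among the called.

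**Figure D3:**
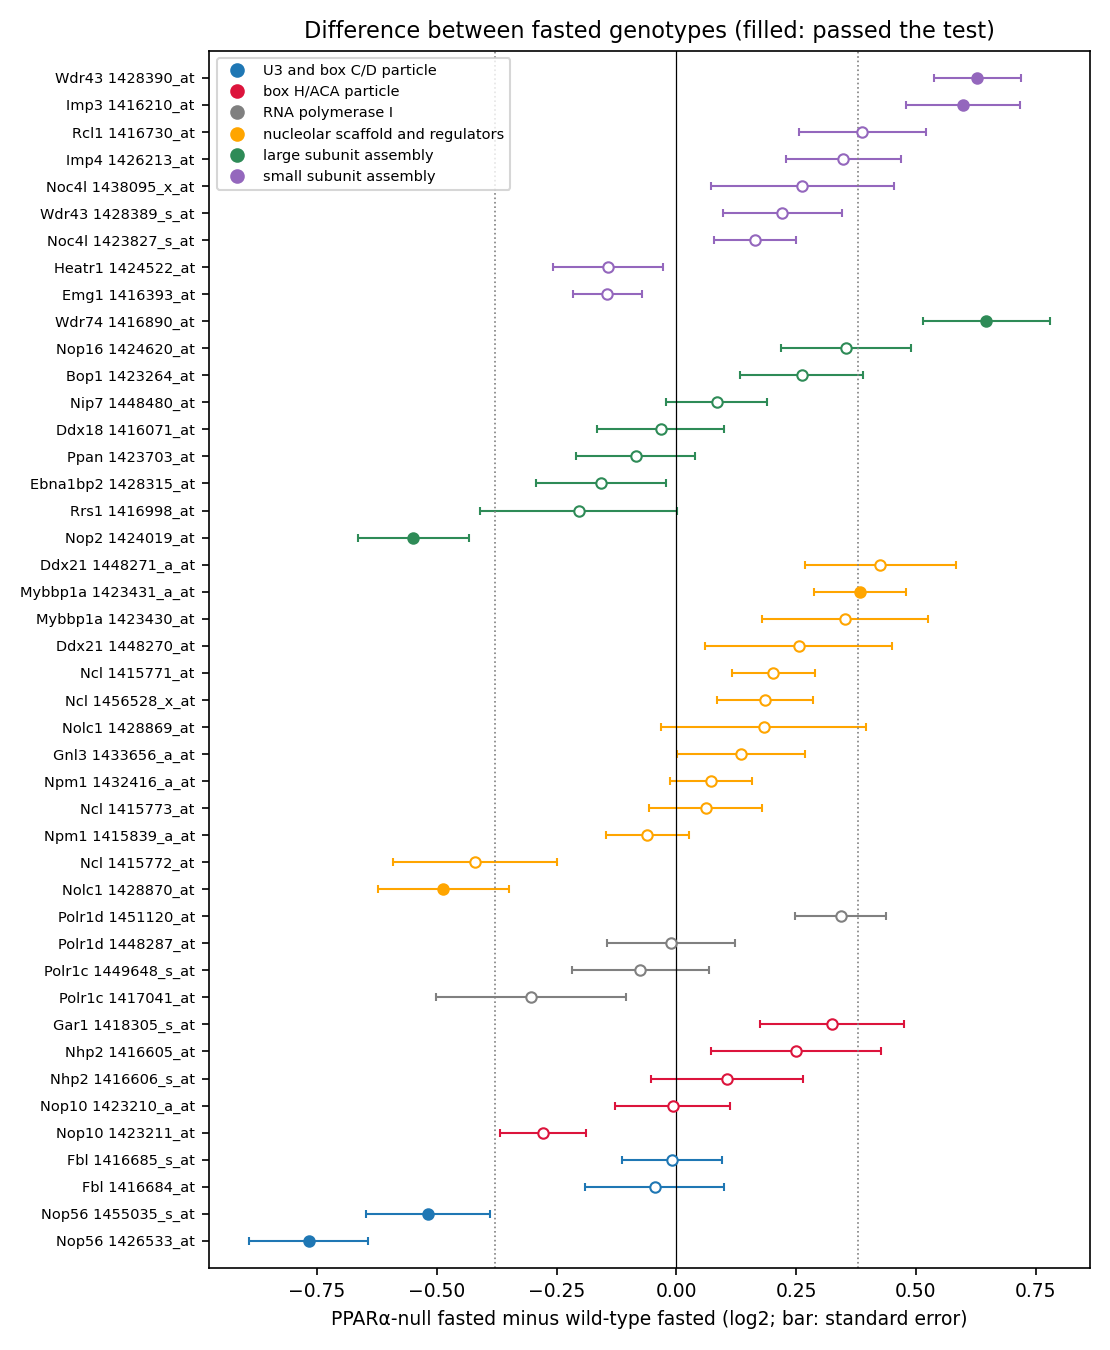
Log2 difference between PPARα-null fasted and wild-type fasted mice for each of the 44 tested probe sets, with its standard error (3 arrays per group), sorted within role; filled points passed the test and dotted lines mark a 1.3-fold difference. The 8 filled points run from Nop56 1426533_at (−0.77) to Wdr74 (0.65).

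The interaction tested whether the response to fasting itself differed between the genotypes, and 5 of the 44 probe sets (11.4%) passed, of 4 genes, against 21.7% of all probe sets (14.1% in the positive and 7.64% in the negative direction). A positive value means a wild-type change above that of PPARα-null mice. Nop56 passed with both probe sets, at 0.76 (SE 0.18, adjusted p = 0.00861 in limma) for 1426533_at, whose wild-type change was −0.14, and at 0.65 (SE 0.18, adjusted p = 0.0233 in limma) for 1455035_s_at, whose wild-type change was 0.28. Nolc1 1428870_at, which fell in both genotypes, passed at 0.73 (SE 0.19, adjusted p = 0.0174 in limma). Wdr43 1428390_at passed at −0.75 (SE 0.13, adjusted p = 0.00148 in limma), with a wild-type change of 0.23 that was not called. Imp3, which rose in both genotypes, passed at −0.61 (SE 0.17, adjusted p = 0.0201 in limma). For all 5 probe sets the change in PPARα-null mice lay further from 0 than that in wild-type mice. Nop2 (0.43, adjusted p = 0.0752), Wdr74 (−0.49, adjusted p = 0.0787) and Mybbp1a (−0.39, adjusted p = 0.0568) did not pass in limma. Leaving out a single array lost the call of Nop56 1455035_s_at in 5 of 12 fits (0.55 to 0.81), those without the second array of the wild-type fed, wild-type fasted or PPARα-null fed mice or the third array of either fasted group. Without PPARα-null fasted replicates 1 and 3 together, Nop56 1426533_at (0.90) and Wdr43 1428390_at (−0.70) passed, a probe set of Polr1c was gained, and Nop56 1455035_s_at (0.53), Nolc1 (0.73) and Imp3 (−0.58) did not pass.

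The rest of the pathway was described by a further list of ribosome biogenesis genes, of which 66 genes with 83 probe sets were tested. In wild-type mice 10 of these probe sets rose and 4 fell upon fasting (16.9%), and in PPARα-null mice 26 rose and 11 fell (44.6%). With both directions together these shares were close to those of all probe sets, 17.5% and 42.2%. In PPARα-null mice rises outnumbered falls in this list, whereas 18.6% of all probe sets rose and 23.6% fell. Between the fasted genotypes 16 of these probe sets were higher and 8 lower in PPARα-null mice (28.9%), beside 11.6% higher and 17.6% lower among all probe sets. Whether the directions differ from those of all probe sets was not tested. None of these probe sets differed in the fed state, where 7 were higher and 0 lower at an unadjusted p under 0.05. Nop53, a nucleolar protein of the large subunit, rose in both genotypes, with changes on probe set 1451121_a_at of 0.62 (adjusted p = 0.00141) in wild-type and 0.98 (adjusted p = 5.83e-06) in PPARα-null mice in limma. Utp6, of the small subunit processome, fell in both, by 0.88 in wild-type and 1.17 in PPARα-null mice. Its fasted means, 10.7 in wild-type and 8.42 in PPARα-null mice, lay under the level cut of 20. Nmd3, the export adaptor of the large subunit, rose by 1.06 in PPARα-null mice on probe set 1448133_at (41.1, 38.6 and 44.5 fasted against 19.9, 29.0 and 26.3 fed), and its wild-type change was 0.26. Ruvbl1 and Ruvbl2, the paired ATPases that help to assemble box C/D particles, had changes of −0.86 and −1.11 in PPARα-null mice, both fallen, and of −0.18 and −0.32 in wild-type mice, neither called. The mean of Ruvbl1 was 20.9 in wild-type fed and 10.6 in PPARα-null fasted mice, the latter under the level cut. Rpl7l1, a ribosomal protein-like factor of the large subunit, had the largest fall of the list, from 142, 172 and 184 in PPARα-null fed to 25.7, 25.6 and 31.0 in PPARα-null fasted mice on probe set 1452049_at, a change of −2.28, against −0.46 in wild-type mice, and its interaction of 1.81 passed (adjusted p = 1.27e-05 in limma). Its other tested probe set, 1426386_at, fell by less in PPARα-null mice (−0.84) and had a change of 0.25, not called, in wild-type mice, with an interaction of 1.09 (adjusted p = 0.00141 in limma).

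The ribosomal proteins themselves, the products that the factors assemble, formed a separate list. Of 78 tested probe sets of cytosolic ribosomal proteins, 10 rose and 1 fell in wild-type mice (14.1%), and 4 rose and 5 fell in PPARα-null mice (11.5%), beside 17.5% and 42.2% of all probe sets. Their medians were 0.26 and 0.18 relative to the common shift, and −0.06 and −0.13 as deposited, so that the direction depends on that constant. Rpl7l1, counted above among the biogenesis genes, was matched by its symbol in this list as well. Its probe set 1452049_at was the 1 that fell in wild-type mice. Both its tested probe sets were among the 5 that fell in PPARα-null mice. Whether the share of the ribosomal proteins differs from that of the biogenesis factors was not tested.

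Upstream of the factors, Myc was called in opposite directions in the 2 genotypes, relative to the common shift. Its probe set 1424942_a_at read 18.6, 24.1 and 31.0 in wild-type fed, 26.7, 27.8 and 33.7 in wild-type fasted, 20.7, 29.4 and 20.7 in PPARα-null fed and 10.3, 10.8 and 8.96 in PPARα-null fasted mice. The PPARα-null fasted arrays lay under all others. Relative to the common shift, Myc rose by 0.60 in wild-type mice (SE 0.18, adjusted p = 0.0323 in limma), where the arrays of the groups overlapped, and fell by 0.91 in PPARα-null mice (SE 0.18, adjusted p = 0.00106 in limma), and its interaction was 1.50 (adjusted p = 0.00147 in limma). Ddit4, a stress-induced inhibitor of mTOR, read 47.6, 62.6 and 28.1 in wild-type fasted and 259, 154 and 220.2 in PPARα-null fasted mice, with changes of 0.04 in wild-type and 2.19 (adjusted p = 1.48e-05 in limma) in PPARα-null mice. Mtor itself rose by 0.44 in wild-type mice on probe set 1417592_at, relative to the common shift (adjusted p = 0.0112 in limma). The wild-type arrays there overlapped as deposited, at 53.8, 63.0 and 65.1 in fed and 73.0, 65.5 and 59.95 in fasted mice. In PPARα-null mice this probe set had a change of 0.20, not called. The other probe set of Mtor, 1436267_a_at, was too low to be tested, with changes of 0.34 in wild-type and 0.69 in PPARα-null mice. Of the 21 tested probe sets of 14 Myc and mTOR regulators, 3 rose and 0 fell in wild-type mice (14.3%), and 9 rose and 2 fell in PPARα-null mice (52.4%). The shares of all probe sets were 17.5% and 42.2%, the latter made of 18.6% risen and 23.6% fallen. Whether Myc or Ddit4 bears on the factors was not tested.

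**Figure D4:**
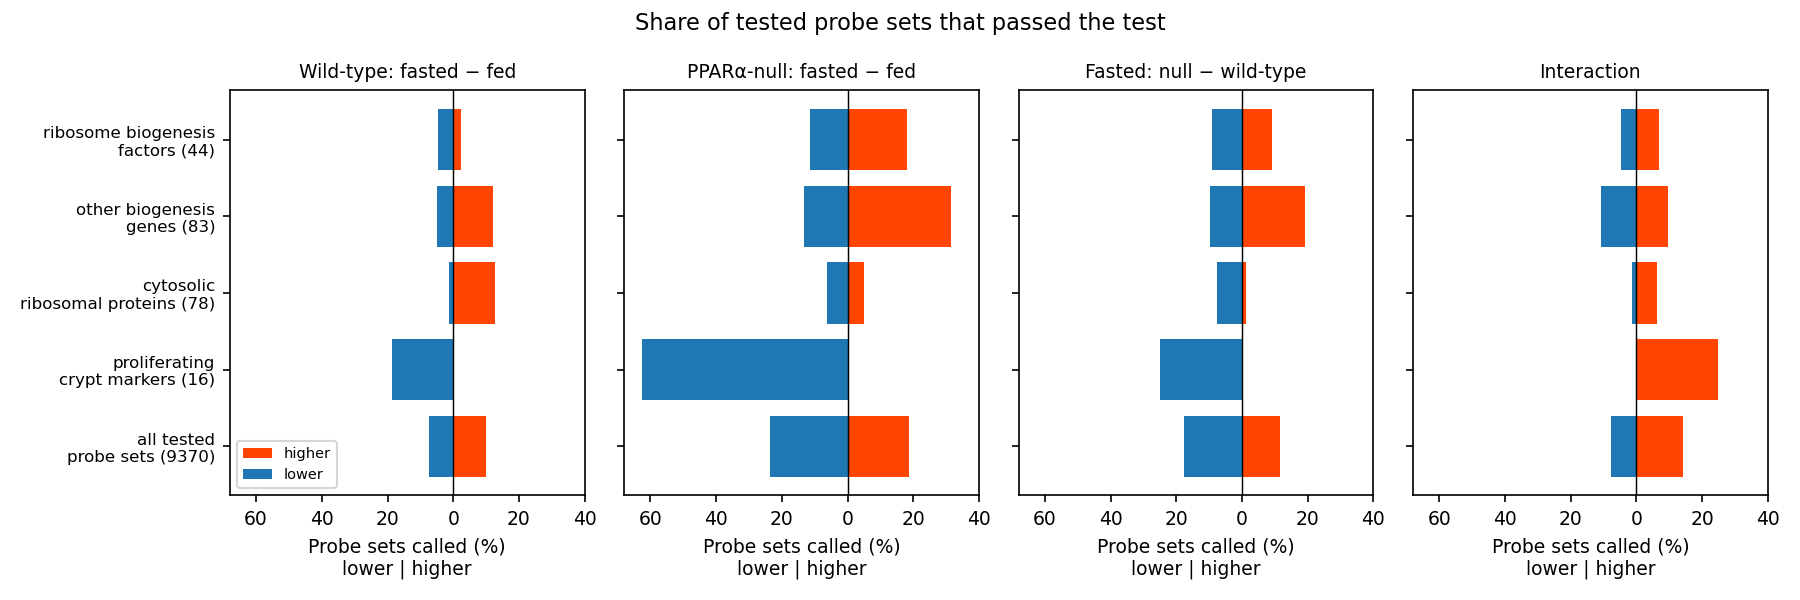
Percentage of tested probe sets that were called lower (left of 0) and higher (right of 0) in each comparison, for ribosome biogenesis factors, other ribosome biogenesis genes, cytosolic ribosomal proteins, proliferating crypt markers and all probe sets, with the number tested in brackets. In fasted PPARα-null mice 29.5% of the biogenesis factors were called in both directions together, against 42.2% of all probe sets, and 62.5% of the crypt markers, all lower.

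Markers of several cell types also changed upon fasting. The summed intensity of 13 proliferating crypt genes was 3041 to 3305 in wild-type fed, 1948 to 2456 in wild-type fasted, 3131 to 3477 in PPARα-null fed and 1748 to 1921 in PPARα-null fasted arrays. Of its 16 tested probe sets, 3 fell in wild-type and 10 fell in PPARα-null mice, none rose in either, and 4 were lower in PPARα-null than in wild-type fasted mice. Of the 3 crypt stem cell genes on the array 1 was tested, and their sum was 81.1 to 89.7 in wild-type fasted and 49.2 to 58.4 in PPARα-null fasted arrays. The summed signal of 7 lymphocyte genes was 833 to 948 in wild-type fed, 512 to 533 in wild-type fasted, 702 to 802 in PPARα-null fed and 239 to 292 in PPARα-null fasted arrays. Of the 8 tested lymphocyte probe sets 2 fell in wild-type and 6 in PPARα-null mice. The 5 smooth muscle genes summed to 4133 to 4933 in wild-type fed, 1867 to 3048 in wild-type fasted, 3859 to 4268 in PPARα-null fed and 2749 to 3013 in PPARα-null fasted arrays, and 3 of their 5 tested probe sets fell in wild-type and 0 in PPARα-null mice. For 4 goblet cell genes the sums were 19820 to 20120, 14610 to 15820, 19560 to 21270 and 16010 to 17120 in the same order, and of 5 tested probe sets 2 fell in wild-type and 3 in PPARα-null mice. Of 3 tested Paneth cell probe sets 1 rose in wild-type and 0 were called in PPARα-null mice. These counts stand beside 7.43% of all probe sets fallen in wild-type and 23.6% in PPARα-null mice. The part of these cell types in the changes of the biogenesis factors was not tested. Replicate 2 of the PPARα-null fasted mice, with little pancreas signal, read 138 for Imp3, 45.8 for Wdr43 1428390_at, 18.1 for Nop56 1426533_at and 10.7 for Nolc1 1428870_at, each beside the other 2 arrays of its group and apart from all PPARα-null fed arrays. This did not hold for every called probe set. Wdr74, at 22.7, and Wdr43 1428389_s_at, at 30.4, lay inside the range of the PPARα-null fed arrays in that replicate. How far the pancreas signal bears on the changes was not tested by these values.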

How the data were processed

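Affymetrix MOE430A arrays of 12 small intestine samples, 3 per group, were analysed. The intensity values were deposited by the authors, who had made them with GCRMA (version 2.20 per the labels), that is, background correction, quantile normalization and summary per probe set. The data are arrays, so that their number limits the precision. Groups came from titles and strains. All computing on the log2 scale was done with R 4.3.3. A probe set named a gene only if it had 1 gene symbol, which held for 20393 of 22690 (691 had several symbols, 1606 had none). No 2 arrays were identical. The limma 3.58.1 model (lmFit and eBayes) had a mean for each group and used the 12 arrays jointly, and the scripts were tested on simulated data. As in the study's methods, calls needed a p below 0.01 before adjustment and a change above 1.3-fold, and were limited to the 9370 probe sets whose wild-type fed mean exceeded 20. Benjamini-Hochberg adjustment ran over these. The common shift of −0.32 was subtracted from fasting contrasts alone. It was −0.11 among probe sets with a mean up to 20, so that a constant would misstate changes of dim probe sets.

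Named with the value of each array were, per fasting contrast, the 10 called members with the largest change, up to 8 called members of each genotype contrast and of the interaction, and the most abundant members. Nip7, Ebna1bp2, Ppara, Myc, Ddit4, Nmd3 and Rpl7l1 were named after their values had been seen. Counts alone had been planned for the other lists, so Nop53, Utp6, Ruvbl1, Ruvbl2 and Mtor were not chosen in advance either. The members and lists were chosen with earlier results of these data known. The alternatives were values as deposited, a shift that depends on level, quantile normalization, centring of arrays, other filters on level, an adjusted p under 0.05, only the groups compared, trended and robust variances, a single probe set for every gene, omission of the _s_at and _x_at probe sets, a replicate block and the omission of single arrays. The pancreas covariate and the fit without PPARα-null fasted replicates 1 and 3 were added after the data had been seen, and the array then left alone in its group was taken to vary like the other groups.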

Additional observations from a re-analysis of the deposited data

Results flagged for a closer look

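The response to fasting differed between wild-type and PPARα-null mice, by the test of the interaction in limma, for 5 probe sets of 4 ribosome biogenesis factors. The wild-type change exceeded that of PPARα-null mice by 0.76 for Nop56 1426533_at (adjusted p = 0.00861), by 0.65 for Nop56 1455035_s_at (adjusted p = 0.0233) and by 0.73 for Nolc1 1428870_at (adjusted p = 0.0174). It was below that of PPARα-null mice for Wdr43 1428390_at, at −0.75 (adjusted p = 0.00148), and for Imp3 1416210_at, at −0.61 (adjusted p = 0.0201). All fasted arrays of Nolc1 1428870_at lay under the level cut. The other tested probe set of Nolc1, 1428869_at, gave −0.14, and that of Wdr43, 1428389_s_at, gave −0.28, neither of them past the test.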

How the results depend on the processing

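Counts of called members were 3 for fasting in wild-type, 13 for fasting in PPARα-null mice, 0 for the fed and 8 for the fasted genotypes, and 5 for the interaction. As deposited, wild-type fasting gave 12, all of them fallen, and PPARα-null fasting 17. Centred arrays moved the fasted genotype contrast from 4 higher and 4 lower to 7 and 4, and quantile normalization to 8 and 4. Without a filter on level, wild-type fasting gave 6 and PPARα-null fasting 20 of 69. With a mean over 100, where 15 probe sets were left, the counts were 0 for wild-type fasting, 3 for PPARα-null fasting, 1 for the fasted genotypes and 0 for the interaction. With 1 probe set per gene PPARα-null fasting gave 7 of 29 and the interaction 3. The pancreas covariate left 1 called member in wild-type fasting. Without PPARα-null fasted replicates 1 and 3 the fed genotypes gave 1, the fasted genotypes 3 and the interaction 3. Leaving out single arrays gave 2 to 4 for wild-type fasting, 11 to 14 for PPARα-null fasting, 0 to 1 for the fed genotypes, 7 to 10 for the fasted genotypes and 4 to 7 for the interaction. For these changes of count the cause was not tested, apart from the smaller or larger number of probe sets under the filters. No change of a named member reversed its sign as a called value. Of the values of single named members under the alternatives, 68 lost their call, 16 gained one and 1263 did neither. The last count includes cases fixed in advance. The filters on level, 1 probe set per gene and omission of _s_at and _x_at probe sets left the value and call of a kept probe set unchanged by construction. Arrays with the same replicate number correlated between −0.149 and 0.218 in their deviations from the group means, so the numbers do not pair the samples. The replicate block gave 4, 13, 0, 9 and 5 called members in the order above. Low signal limits the list, since 25 of 69 probe sets were under the level cut.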
